A study of Rattus norvegicus with 6 samples.

Results

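The connexin and intercalated disc genes Gja1, Gja5, Gjc1, Dsp, Pkp2, Jup, Cdh2, Dsg2, Dsc2 and Tjp1 were examined in rat myocardium after ischemia and reperfusion. These 10 genes were taken by their symbols from a table of 28293 genes. All 10 were listed there and all 10 were among the 10942 genes expressed highly enough to be tested (a mean of at least 0.5 FPKM, fragments per kilobase, scaled by library size). In the sham group, Jup, Gja1, Tjp1 and Dsp had the highest levels of the 10. After reperfusion the mRNAs of Gja1, Dsp, Pkp2 and Cdh2 were 1.80 to 3.09 times as abundant per library as in sham myocardium. Those of Gja5, Dsc2 and Tjp1 had lower means that did not pass the test on this scale. Of all tested genes, 25.5% were higher on it. With mitochondrial mRNAs left out of the library total, 0 of the 10 genes were higher, and Gja5, Dsc2 and Tjp1 were lower. On that scale 7.25% of all tested genes were higher and 26.1% lower, so the count of 3 of 10 was near this share.

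The study sequenced total RNA of myocardial tissue from male wild-type rats, in 3 samples labelled sham and 3 labelled I/R (myocardial ischemia/reperfusion injury, MI/RI). The left anterior descending coronary artery was tied for 30 min and then released, and the heart was taken 6 h later. The sham titles carry the same times of 30 min and 6 h, and both groups share the genotype and the surgical protocol text. The labels number the samples without naming animals, so the p-values measure the spread between these samples only.

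The intercalated disc is the end-to-end contact between cardiomyocytes. Gap junction channels made of connexins pass current and small molecules from cell to cell there, while desmosomes anchor the desmin filaments and adherens junctions anchor the actin of the sarcomeres. In the working ventricle the gap junction channels are built mainly of connexin 43, the product of Gja1. Connexin 40 (Gja5) belongs to the atria, the conduction system and arterial endothelium, and connexin 45 (Gjc1) to the conduction system at low levels. The scaffold ZO-1 (Tjp1) binds the tail of connexin 43 at the rim of the gap junction plaque.

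The promoters of Gja1 and Gja5 are shown because the log2 fold changes of these connexins lay on opposite sides of 0 in the deposited FPKM. There the lower value of Gja5 did not pass the test, and against cardiomyocyte markers both genes were lower. They come from RefSeq (build GRCr8), which gave a promoter for 7 of the 10 genes, each of 250 bases before and 50 after the annotated start. Short motifs were searched on both strands, and the capitals mark every match.
Gja1 (chr20:36302314-36302613, plus strand): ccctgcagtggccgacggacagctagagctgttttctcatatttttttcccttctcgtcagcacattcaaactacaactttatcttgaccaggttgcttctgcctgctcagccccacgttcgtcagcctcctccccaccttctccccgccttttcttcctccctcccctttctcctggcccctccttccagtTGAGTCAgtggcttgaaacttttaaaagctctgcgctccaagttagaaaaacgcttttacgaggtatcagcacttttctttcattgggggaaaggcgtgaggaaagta
Gja5 (chr2:187290977-187291276, plus strand): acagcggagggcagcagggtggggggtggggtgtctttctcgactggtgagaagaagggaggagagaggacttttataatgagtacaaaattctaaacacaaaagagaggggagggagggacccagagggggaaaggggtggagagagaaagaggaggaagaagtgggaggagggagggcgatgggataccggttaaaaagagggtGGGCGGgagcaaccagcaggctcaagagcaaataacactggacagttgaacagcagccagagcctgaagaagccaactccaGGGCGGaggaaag
The match in Gja1 begins 58 bases before the start and is an AP-1 motif (TGANTCA, bound by Fos and Jun). Of the 7 promoters only that of Gja1 held it, and 7.33% of 33469 rat promoters of the same length did. The matches in Gja5 begin 44 bases before and 37 bases after the start and are GC boxes (GGGCGG, bound by SP1). GC boxes were also present in the promoters of Jup, Dsp, Dsc2 and Dsg2, and in 33.1% of all promoters. An NKX2-5 motif (TNAAGTG) was found in Tjp1 alone, against 11.5% of all promoters, and a T-box motif (GGTGTGA) in none of the 7, against 3.83%. These letters describe the windows and do not show that a factor was bound.

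The libraries of the groups also differed in makeup outside the disc genes. The 13 mitochondrially encoded mRNAs took 80.1 to 86.2% of all FPKM in the sham samples and 61.8 to 71.5% in the I/R samples. Cardiomyocyte markers such as Myh6 and Tnnt2 (9 measured of 10) summed to 3536 to 11547 FPKM in the sham group and 23764 to 34467 in the I/R group. Sham 1 had the highest sum of the sham samples, followed by 4017 in sham 2. On average the log2 level of these markers was 2.12 higher in the I/R group, while the log2 fold change of the median tested gene was 0.29. The single markers ranged from 0.68 (Ttn) and 0.82 (Ryr2), which did not pass the test, to 3.79 (Actc1). Depth relative to sham 1, read from the steps between low values, was 1.18 and 1.14 in sham 2 and sham 3 and 0.872 to 0.935 in the I/R samples. In bulk tissue, fewer cells of a type and less RNA per cell cannot be told apart.

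Each comparison is therefore given on 3 scales. These are the deposited FPKM, FPKM rescaled to a common total over all genes except the mitochondrial mRNAs, and log2 values centred on the cardiomyocyte markers of the same sample. Between the deposited and the rescaled values the median over all genes moved from 0.29 to -0.46 on the log2 scale, and with the centring it was -1.83. On the deposited scale limma (adjusted p under 0.05) found 4 of the 10 genes higher in the I/R group and 0 lower, against 25.5% of all tested genes higher and 7.36% lower. Leaving out sham 1 also gave 4 higher and 0 lower. After the rescaling 0 were higher and 3 (Gja5, Dsc2 and Tjp1) were lower, against 7.25% and 26.1% of all genes. After the centring 0 were higher and 7 were lower, against 0.338% and 78.2%. The markers rose unequally, so the centred values depend on which of them are averaged, and other choices were not tried. The centring takes the same marker mean from every gene, so all genes share its spread between samples. The limma p-values on this scale treat that shared spread as separate for each gene and may be too small. For Tjp1 an exact permutation test of the same centred values gave p = 0.1 (0.143 adjusted over the 10 genes). The median log2 fold change of the 10 genes was 0.66 on the deposited scale, -0.10 on the rescaled scale and -1.46 on the centred scale.

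**Figure D1:**
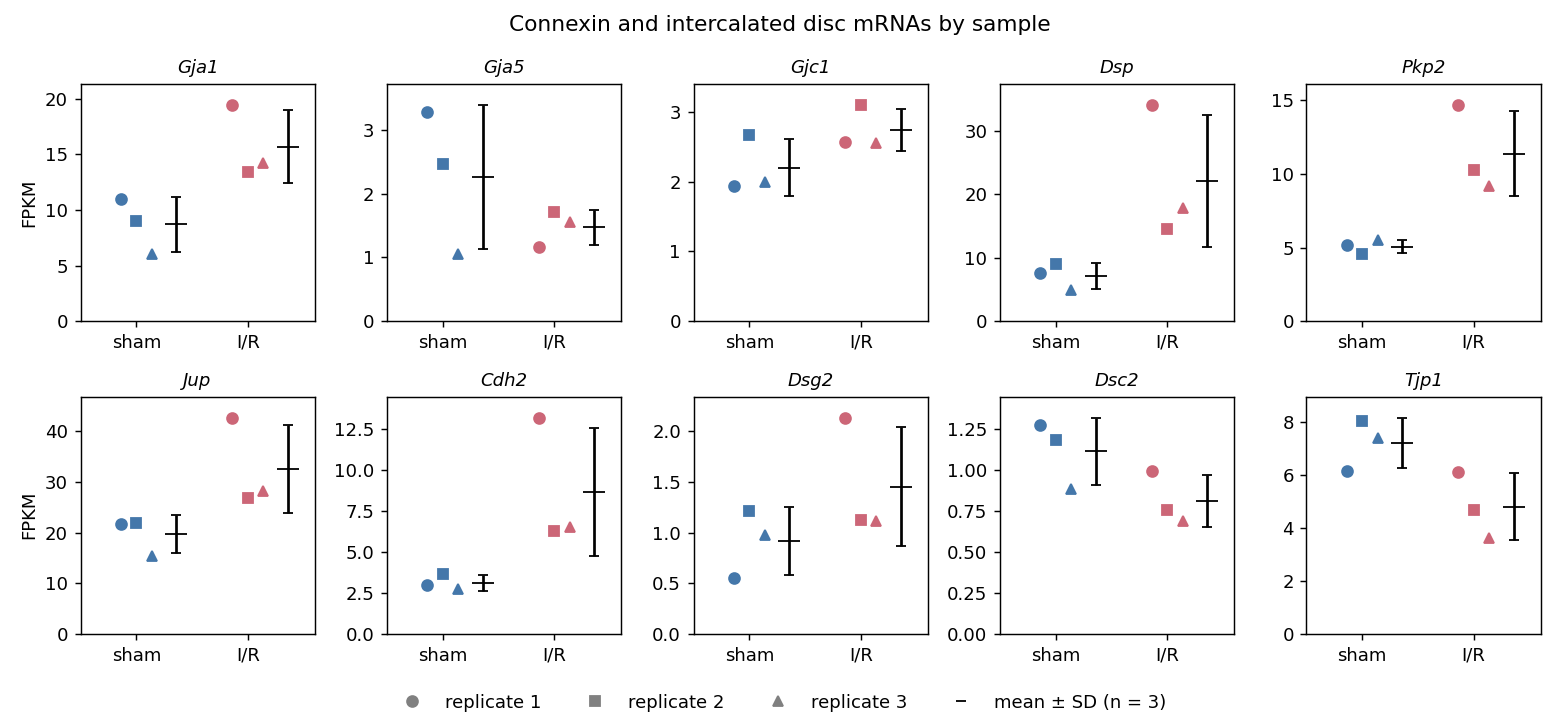
FPKM of the 10 genes in each sham and I/R sample (point shape gives the replicate number), with the mean and SD of 3 samples per group; each vertical axis starts at 0. The highest I/R point is replicate 1 in 8 of the 10 genes, all but Gja5 and Gjc1. The groups do not overlap in Gja1, Dsp, Pkp2, Jup, Cdh2 and Tjp1. The matching shares over all tested genes were not computed.

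Among the connexins, Gja1 had 11.003, 9.03 and 6.04 FPKM in sham 1 to 3 and 19.4, 13.4 and 14.2 FPKM in I/R 1 to 3. Every I/R sample was above every sham sample. The mean was 8.69 ± 2.50 (SD, n = 3) FPKM in the sham group and 15.7 ± 3.27 (SD, n = 3) FPKM in the I/R group, a log2 fold change of 0.87 ± 0.28 (SE; limma adjusted p = 0.0375). This call did not hold when sham 2, sham 3, I/R 1, I/R 2 or I/R 3 was left out (adjusted p from 0.0553 to 0.147), and held without sham 1 (adjusted p = 0.0226). It also missed the threshold with no filter on low values (adjusted p = 0.0696), after centring on the median gene (0.62, adjusted p = 0.0855) and after quantile normalization (0.22, adjusted p = 0.479). On the rescaled values the log2 fold change was 0.09 (adjusted p = 0.802), and against the cardiomyocyte markers Gja1 was lower by a log2 fold change of -1.25 (adjusted p = 0.0165).

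Gja5 was measured at 3.28, 2.46 and 1.05 FPKM in sham 1 to 3 and at 1.17, 1.70 and 1.55 FPKM in I/R 1 to 3. The sham samples spread more widely than the I/R samples and overlapped them. The log2 fold change was -0.46 ± 0.38 (SE; 95% interval -1.31 to 0.38, adjusted p = 0.368) on the deposited scale. It was -1.20 (adjusted p = 0.0238) on the rescaled scale and -2.58 (adjusted p = 0.000274) against the cardiomyocyte markers. Without sham 1 the deposited log2 fold change was -0.14.

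Other cells that carry connexin 40 were followed beside it. Markers of arterial endothelium (5 of 5 measured, among them Sox17 and Dll4) summed to 18.1 to 26.1 FPKM in the sham group and 27.0 to 29.7 FPKM in the I/R group. Of the 5, 1 (Hey1) was lower in the I/R group and none was higher, whereas with the replicate block none was lower and 1 (Sox17, adjusted p = 0.0416) was higher. General endothelial markers (7 of 8 measured, Pecam1 and Tek among them) summed to 160 to 204 and 158 to 174 FPKM, and none of the 7 was called (1, Kdr, was higher with the replicate block, adjusted p = 0.0451). Atrial markers (5 of 5 measured) summed to 8.22 to 72.1 FPKM in the sham and 18.3 to 147 FPKM in the I/R group, with 1 of the 4 tested called higher (2 with the replicate block). Of these, Nppa stood at 65.3 FPKM in sham 1 and 78.4 in I/R 1, and Myl7 at 133 FPKM in I/R 3 against 0.905 to 3.57 in the other samples. Conduction system markers (5 of 5 measured) summed to at most 0.249 FPKM in any sample, and Isl1 was listed at 0 in all. Smooth muscle markers summed to 66.0 to 267 FPKM in the sham and 108 to 302 FPKM in the I/R group, and none of the 5 was called (1, Smtn, was higher with the replicate block, adjusted p = 0.0259). The calls above are on the deposited scale. After the rescaling 2 of the 5 arterial and 5 of the 7 general endothelial markers were lower and 0 higher, against 26.1% and 7.25% of all genes. None of the tested atrial or smooth muscle markers was called there. After the centring all arterial, general endothelial and smooth muscle markers were lower, and 2 of the 4 atrial ones, against 78.2% of all genes. The part of these cells in the Gja5 values was not tested.

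Gjc1 had 1.94, 2.67 and 1.99 FPKM in sham 1 to 3 and 2.57, 3.10 and 2.56 FPKM in I/R 1 to 3. Sham 2 lay within the I/R range. The log2 fold change was 0.31 ± 0.23 (SE; 95% interval -0.19 to 0.82, adjusted p = 0.312). It was below 0 on the rescaled scale (-0.44, adjusted p = 0.283) and on the centred scale (-1.80, adjusted p = 0.00567).

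The shares of Gja1, Gja5 and Gjc1 in their own sum do not depend on the total of a library. Other connexins are outside this sum, among them Gja4, with means of 6.58 FPKM in the sham and 6.45 FPKM in the I/R group. Gja1 made up 67.8, 63.8 and 66.5% of the summed FPKM of Gja1, Gja5 and Gjc1 in sham 1 to 3, and 83.9, 73.6 and 77.6% in I/R 1 to 3. All I/R samples were above all sham samples, by 12.3 percentage points on average (exact two-sided permutation p = 0.1, the lowest possible with 3 samples against 3). After quantile normalization the difference was 6.14 points. This share and that of Dsc2 below were computed after the values had been seen.

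Desmosomes hold plaque proteins and cadherins. Among the desmosomal members Dsp and Pkp2, both of the plaque, rose on the deposited scale. Neither passed after the rescaling without mitochondrial mRNAs or after the centring on cardiomyocyte markers. Dsp encodes desmoplakin, which ties the plaque to desmin. It had 7.57, 8.94 and 4.97 FPKM in sham 1 to 3 and 34.1, 14.5 and 17.8 FPKM in I/R 1 to 3. Every I/R sample exceeded the sham samples, and I/R 1 was far above the other I/R samples. The mean rose from 7.16 ± 2.02 to 22.1 ± 10.5 FPKM (SD, n = 3 each), a log2 fold change of 1.56 ± 0.35 (SE; adjusted p = 0.00982). Without I/R 1 the log2 fold change was 1.20 (adjusted p = 0.0234). The rescaled log2 fold change of 0.78 (adjusted p = 0.0638) missed the threshold, and the centred one was -0.56 (adjusted p = 0.274). After quantile normalization it was 0.90 (adjusted p = 0.0474), and after centring on the median gene 1.31 (adjusted p = 0.0169).

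Plakophilin 2, encoded by Pkp2, links desmoplakin to the desmosomal cadherins. Its mRNA stood at 5.15, 4.56 and 5.48 FPKM in sham 1 to 3 and at 14.7, 10.3 and 9.21 FPKM in I/R 1 to 3. The sham samples lay close together, well below the I/R samples. The log2 fold change was 1.13 ± 0.24 (SE; adjusted p = 0.00857). It was 0.35 (adjusted p = 0.315) after the rescaling and -0.99 (adjusted p = 0.0688) after the centring on cardiomyocyte markers. After quantile normalization it was 0.61 (adjusted p = 0.0592), and after centring on the median gene 0.88 (adjusted p = 0.0191).

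Jup encodes plakoglobin, which sits in both desmosomes and adherens junctions. It was the most abundant of the 10 mRNAs per length, with 21.8, 21.9 and 15.5 FPKM in sham 1 to 3 and 42.6, 26.8 and 28.2 FPKM in I/R 1 to 3. The groups did not overlap. The log2 fold change was 0.71 ± 0.27 (SE; adjusted p = 0.0668), and with the replicate number as a block the adjusted p was 0.0297. After rescaling to TPM the adjusted p was 0.0419, and with only genes of at least 5 FPKM tested it was 0.0474. The sign turned after the rescaling without mitochondrial mRNAs (-0.077, adjusted p = 0.827), after quantile normalization (-0.14, adjusted p = 0.602) and after the centring (-1.41, adjusted p = 0.00376).

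The desmosomal cadherins desmoglein 2 (Dsg2) and desmocollin 2 (Dsc2) pair across the gap between cells, and both were rare at the mRNA level. Dsg2 had 0.557, 1.22 and 0.974 FPKM in sham 1 to 3 and 2.13, 1.12 and 1.11 FPKM in I/R 1 to 3. Only I/R 1 stood above the sham range. Its log2 fold change was 0.61 ± 0.36 (SE; 95% interval -0.19 to 1.41, adjusted p = 0.212), with -0.12 (adjusted p = 0.842) after the rescaling and -1.51 (adjusted p = 0.0375) after the centring.

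Dsc2 was measured at 1.27, 1.18 and 0.884 FPKM in sham 1 to 3 and at 0.990, 0.752 and 0.687 FPKM in I/R 1 to 3. Its groups overlapped, through sham 3 and I/R 1. The log2 fold change was -0.41 ± 0.28 (SE; 95% interval -1.05 to 0.22, adjusted p = 0.285), -1.13 (adjusted p = 0.0259) after the rescaling and -2.53 (adjusted p = 0.00100) after the centring. Set against its partner, Dsc2 made up 69.5, 49.2 and 47.6% of the summed FPKM of Dsc2 and Dsg2 in sham 1 to 3 and 31.7, 40.2 and 38.2% in I/R 1 to 3. The share was lower in every I/R sample, with a mean difference of -18.8 percentage points (two-sided exact permutation test, p = 0.1). Leaving out sham 1, which had the highest share, reduced the difference to -11.7 points.

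In the adherens junction, N-cadherin (Cdh2) joins neighbouring cardiomyocytes. It had 3.01, 3.67 and 2.71 FPKM in sham 1 to 3 and 13.1, 6.26 and 6.54 FPKM in I/R 1 to 3. All I/R samples were above the sham samples, and I/R 1 had the highest value. The mean rose from 3.13 ± 0.49 to 8.65 ± 3.90 FPKM (SD, n = 3 each), a log2 fold change of 1.36 ± 0.31 (SE; adjusted p = 0.00997). It was 1.02 (adjusted p = 0.0188) without I/R 1. The rescaled value was 0.59 (adjusted p = 0.146) and the centred value -0.75 (adjusted p = 0.187). After quantile normalization it was 0.95 (adjusted p = 0.0194), and after centring on the median gene 1.11 (adjusted p = 0.0153).

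Tjp1 had the lowest log2 fold change of the 10 genes. It was measured at 6.16, 8.02 and 7.40 FPKM in sham 1 to 3 and at 6.13, 4.68 and 3.61 FPKM in I/R 1 to 3. The groups did not overlap, although sham 1 and I/R 1 almost met. The log2 fold change was -0.60 ± 0.25 (SE; adjusted p = 0.0948), and without I/R 1 it was -0.78 (adjusted p = 0.0449). After rescaling to TPM it was -0.40 (adjusted p = 0.300). On the remaining scales it was lower in the I/R group, with -1.37 (adjusted p = 0.00415) after the rescaling, -0.85 (adjusted p = 0.0163) after centring on the median gene, -1.07 (adjusted p = 0.0113) after quantile normalization and -2.71 (adjusted p = 6.52e-06) after the centring on cardiomyocyte markers.

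Mesothelial and epithelial cells also carry desmosomes. The mesothelial markers Msln, Upk3b, Upk1b and Lrrn4 were at most 0.213 FPKM in any sample. Wt1, the remaining one of the 5 measured of 7, was at 3.64 to 7.77 FPKM and was not called on the deposited scale.

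**Figure D2:**
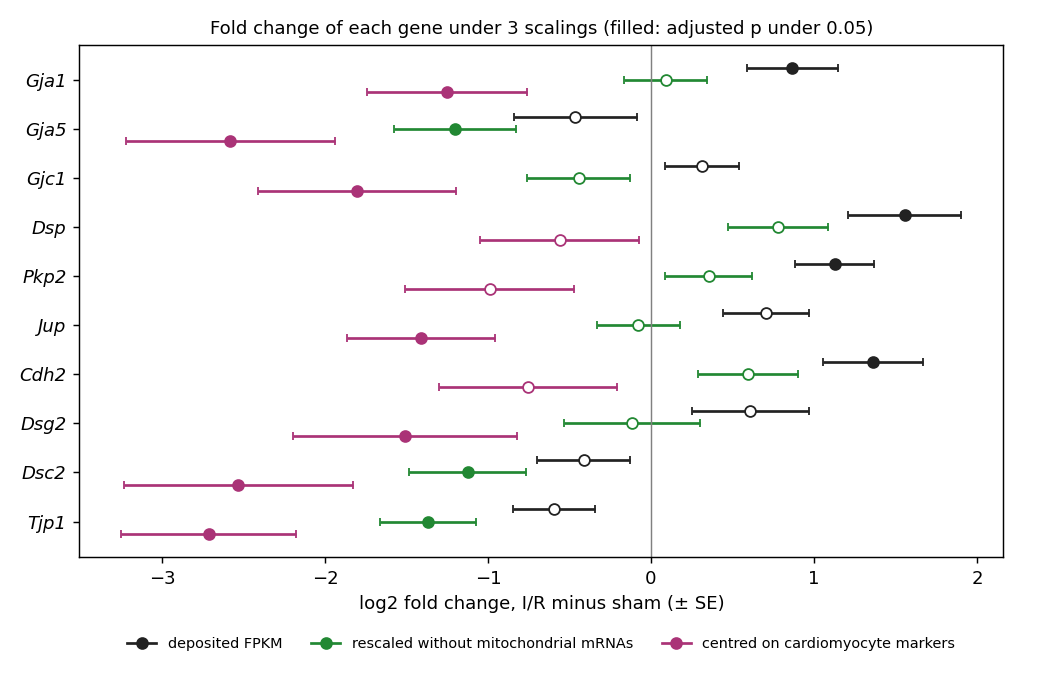
Log2 fold change (I/R minus sham, n = 3 each) of each gene with its SE on the deposited, the rescaled and the cardiomyocyte-centred scale; filled points passed an adjusted p of 0.05. Gja5, Dsc2 and Tjp1 lie below 0 on all 3 scales, and Dsp has the highest value on each.

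The order of the levels, which FPKM gives per length, also differed between the groups. In the sham group it ran Jup (19.7 FPKM on average), Gja1 (8.69), Tjp1 (7.19), Dsp (7.16), Pkp2 (5.06), Cdh2 (3.13), Gja5 (2.26), Gjc1 (2.20), Dsc2 (1.11) and Dsg2 (0.916). Of these neighbours, only Jup and Gja1, Pkp2 and Cdh2, and Gjc1 and Dsc2 had values that did not overlap. In the I/R group the order was Jup (32.5), Dsp (22.1), Gja1 (15.7), Pkp2 (11.4), Cdh2 (8.65), Tjp1 (4.80), Gjc1 (2.74), Gja5 (1.47), Dsg2 (1.45) and Dsc2 (0.810). There the neighbours that did not overlap were Cdh2 and Tjp1, Tjp1 and Gjc1, Gjc1 and Gja5, and Dsg2 and Dsc2. Tjp1 thus stood at place 3 in sham and at place 6 in I/R, and Dsp at places 4 and 2.

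Against the mean log2 level of the cardiomyocyte markers in the same sample, 7 of the 10 genes were lower in all I/R samples than in all sham samples and 0 were higher. Of all tested genes 80.9% were lower and 0.659% were higher without overlap. Dsp (-0.56), Cdh2 (-0.75) and Dsg2 (-1.51) were the members whose log2 differences overlapped, in each through sham 1. Without sham 1 all 10 were lower without overlap. The 7 had an exact permutation p of 0.1 (0.143 adjusted over the 10 genes), the lowest the design allows before adjustment.

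Measured against Gja1 in the same sample, a ratio that a library-wide factor does not alter apart from the pseudocount, 4 of the other 9 genes overlapped between the groups and 5 did not. Dsp (0.69) and Cdh2 (0.49) had higher log2 ratios to Gja1 in all I/R samples, a count of 2 of 9 against 8.94% of all tested genes. Tjp1 (-1.46), Gja5 (-1.33) and Dsc2 (-1.28) had lower ones, a count of 3 of 9 against 37.1% of all genes, a share near the background. For Dsp the log2 ratio was -0.53, -0.01 and -0.28 in sham 1 to 3 and 0.81, 0.12 and 0.32 in I/R 1 to 3. Dsp thus lay below Gja1 in every sham sample and above it in every I/R sample. For Tjp1 it was -0.83, -0.17 and 0.29 in the sham and -1.65, -1.50 and -1.95 in the I/R samples. The ratios of Pkp2 (0.26), Jup (-0.16), Dsg2 (-0.26) and Gjc1 (-0.55) overlapped between the groups. The exact permutation p was 0.1 for each of the 5 that did not overlap (0.18 adjusted over the 9 genes). The highest sham ratio of Cdh2, -1.13, was close to the lowest I/R ratio, -1.11, and with a pseudocount of 1 only 1 gene was higher without overlap. Without sham 1 the count of lower ratios was 6.

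**Figure D3:**
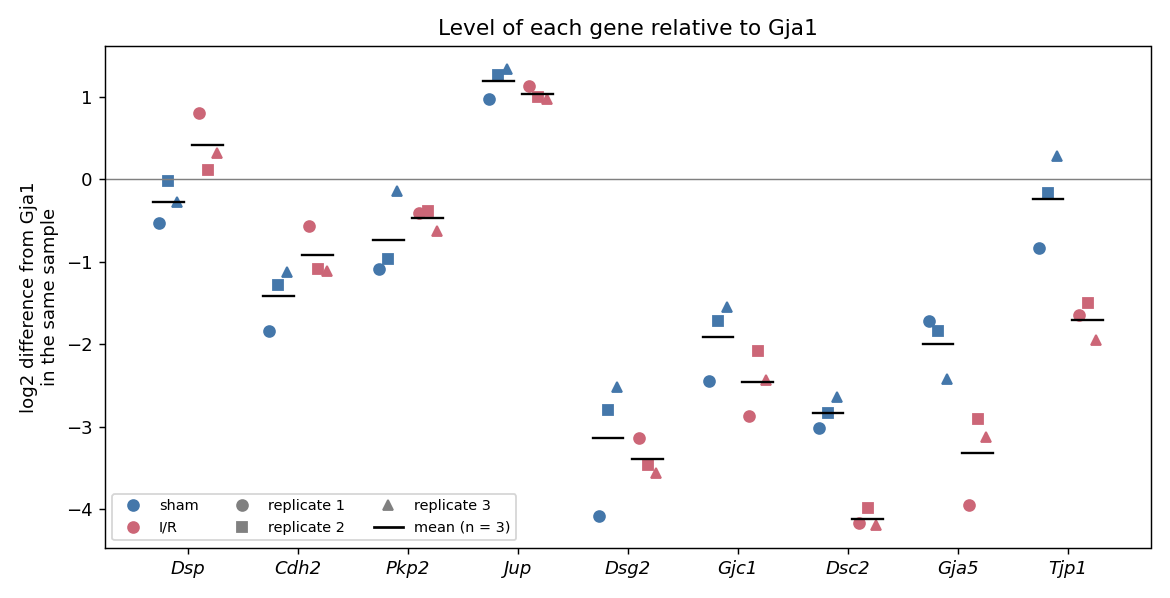
Log2 difference of each gene from Gja1 in the same sample, for 3 sham and 3 I/R samples with the group mean as a line. Dsp and Cdh2 lie higher in the I/R samples, and Dsc2, Gja5 and Tjp1 lie lower, with no overlap between the groups.

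The counts of the related lists that follow are on the deposited scale unless another is named. There 25.5% of all tested genes were higher and 7.36% lower. After the rescaling these shares were 7.25% and 26.1%, and after the centring 0.338% and 78.2%. No list was tested against these shares. Of the 20 other connexins and pannexins, 10 were listed at 0 in all samples and 4 were expressed highly enough to be tested, of which 1 was higher and 1 lower. The pannexin Panx2 was at 0.207 FPKM on average in the sham and 0.878 FPKM in the I/R group (log2 fold change 1.70, adjusted p = 0.0138) and reached the filter through its I/R samples. Connexin 37 (Gja4), an endothelial connexin, averaged 6.58 and 6.45 FPKM, with a log2 fold change of -0.00 ± 0.24 (SE) on the deposited and -0.77 (adjusted p = 0.0316) on the rescaled scale. Panx1, a channel that releases ATP, was below the filter, with 0.138, 0.213 and 0.229 FPKM in sham 1 to 3 and 0.866, 0.530 and 0.784 FPKM in I/R 1 to 3. With the replicate block Gja3 (connexin 46; 0.381 and 1.13 FPKM) was also called higher (adjusted p = 0.0236).

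Of 14 other desmosome genes, 6 were tested, with 2 higher and 0 lower. Des, encoding desmin, rose from 89.9 to 272 FPKM on average (log2 fold change 1.61, adjusted p = 0.0198). Perp, a membrane protein of desmosomes, rose from 5.18 to 14.2 FPKM (1.52, adjusted p = 0.00660). Pnn (pinin) had 5.69 and 3.62 FPKM (-0.61, adjusted p = 0.193). On the rescaled values 1 of the 6 was higher and 1 lower, and on the centred values 0 and 4.

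Of the adherens junction genes, 5 of 14 tested were higher and 1 was lower. The actin-binding disc proteins Xirp1 (3.08 to 17.7 FPKM, log2 fold change 2.50, adjusted p = 0.00260), Nrap (10.95 to 42.7 FPKM, 2.08, adjusted p = 0.00857) and Xirp2 (1.40 to 5.52 FPKM, 1.90, adjusted p = 0.00354) rose, and these 3 were also the ones higher after the rescaling. Alpha-E-catenin (Ctnna1) rose by a log2 fold change of 0.84 (adjusted p = 0.0389) and T-cadherin (Cdh13) by 0.86 (adjusted p = 0.0425), with 0.06 and 0.08 after the rescaling. Afadin (Afdn) fell from 7.25 to 4.18 FPKM (-0.77, adjusted p = 0.0225). Beta-catenin (Ctnnb1; 31.6 and 33.2 FPKM, 0.07), p120-catenin (Ctnnd1; 0.22) and vinculin (Vcl; 0.31) did not pass. Ctnna3 was not analysed here. After the rescaling 3 of the 14 were higher and 6 lower. After the centring 0 were higher and 11 lower, against 78.2% of all genes lower.

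In the tight junction and adhesion list, 2 of 12 tested genes were higher and 0 lower. These were the Popeye domain genes Bves (1.57 to 6.05 FPKM, log2 fold change 1.89, adjusted p = 0.00427) and Popdc2 (8.21 to 28.4 FPKM, 1.80, adjusted p = 0.00990). The coxsackievirus and adenovirus receptor (Cxadr) had 0.294, 2.73 and 1.27 FPKM in sham 1 to 3, a spread that contained all its I/R values. After the rescaling 2 of the 12 were higher and 4 lower, and after the centring 0 and 10.

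The sodium channel complex of the disc had a median of 1.80 on the log2 scale, the highest of the 7 related lists and below the 2.28 of the cardiomyocyte markers, with 5 of 7 tested genes higher and 0 lower. The beta subunit Scn4b rose from 0.438 to 4.21 FPKM on average (log2 fold change 2.57, adjusted p = 0.0137). Its values were 9.43, 1.38 and 1.83 FPKM in I/R 1 to 3, with I/R 1 far above the other I/R samples. Ankyrin-G (Ank3), which anchors the channel, had 0.615 and 0.662 FPKM (0.09, adjusted p = 0.846). The same count of 5 was higher after the rescaling, and after the centring 0 were higher and 2 lower.

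Genes of connexin trafficking and turnover had 6 of 15 tested higher and 0 lower, and 5 higher with the replicate block. Caveolin 3 (Cav3, of the cardiomyocyte membrane) rose from 15.3 to 67.6 FPKM (log2 fold change 2.29, adjusted p = 0.00370) and ezrin (Ezr) from 1.49 to 4.01 FPKM (1.33, adjusted p = 0.00577). After the rescaling 1 of the 15 was higher and 0 lower, and after the centring 0 and 12. Of 9 transcription factors that act on cardiac connexin genes, 4 were higher and 1 lower. Nkx2-5 rose from 5.53 to 31.3 FPKM (2.50, adjusted p = 0.00536), and Tbx18 fell from 0.989 to 0.369 FPKM (-1.41, adjusted p = 0.0416). After the rescaling 1 was higher and 3 lower, and after the centring 0 and 6. Panx2, Gja3, Scn4b, Fgf13, Prkce and Tbx5 passed the filter on low values only through their I/R samples, and Tbx18 only through its sham samples, so the list counts that hold them lean that way.

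**Figure D4:**
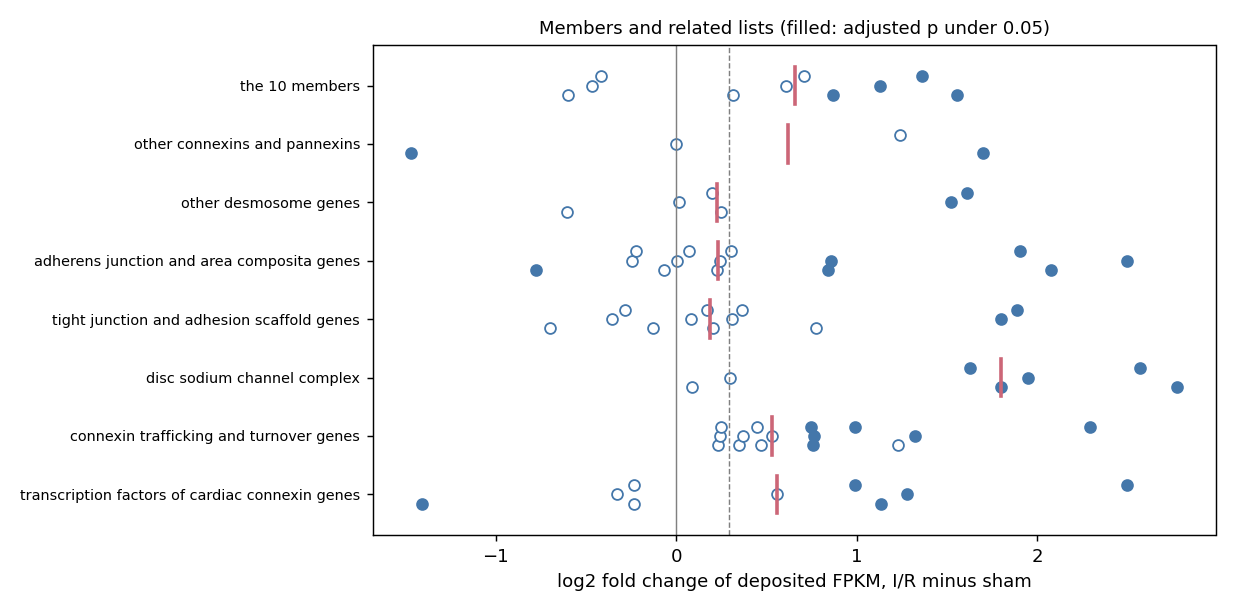
Log2 fold change of deposited FPKM (I/R minus sham) of the tested genes of each list; filled points passed an adjusted p of 0.05, red bars are list medians and the dashed line is the median of all tested genes (0.29). Of the lists drawn, the sodium channel complex has the highest median, 1.80, and the 10 disc genes a median of 0.66.

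Markers of fibroblasts and white blood cells were read in the same samples. Of 7 fibroblast markers 2 were higher, with sums of 420 to 581 FPKM in the sham and 605 to 669 FPKM in the I/R group. Of 7 neutrophil and monocyte markers 5 were tested and 3 were higher (among them Mmp8, which passed the filter on low values only through its I/R samples, as did Csf3r, which was not called), with sums of 50.5 to 65.7 and 74.2 to 142 FPKM. These counts are on the deposited scale. After the rescaling 0 fibroblast markers were higher and 2 lower, and 2 neutrophil and monocyte markers were higher and 0 lower. After the centring the counts were 0 and 6 for fibroblasts, and 0 and 1 for neutrophils and monocytes. The part of these cells in the values of the disc genes was not tested.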

How the data were processed

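Total RNA of rat myocardium (3 sham, 3 I/R) was sequenced from stranded total RNA libraries. The authors deposited FPKM values per gene and sample in 1 table; STAR and HTSeq are named in the submitters' processing notes, and the genome build and annotation are not given in the sources used here. FPKM keep no absolute read counts, so only relative depth was estimated, from 3952 low genes. The 30452 rows were summed by symbol to 28293 genes, and the 7092 rows without a symbol kept their identifier.

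Log2(FPKM + 0.1) of 10942 genes with a mean of at least 0.5 FPKM was fitted with limma 3.58.1 in R 4.3.3 (lmFit, eBayes with trend), with Benjamini-Hochberg adjustment over all genes tested and a threshold of 0.05. Fold changes are on the log2(FPKM + 0.1) scale and understate changes of low genes. Ratios within a sample were compared by two-sided exact permutation tests, which cannot go below 0.1. The fit was tested on simulated data.

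The members, the lists and the rules were chosen with earlier results of these data known. Genes outside the 10 members were named from a short fixed list plus up to 2 further genes per list with the largest absolute log2 fold change; Gja3, Fgf13, Prkce, Tbx5 and the single marker genes were named after their values were seen. Some genes that this rule names are not reported here. Same-numbered samples deviated together from their group means (correlations of 0.203, 0.117 and 0.118 over genes, for numbers taken from the sample titles), so the groups were also fitted with a term for the replicate number. Sham 3 and I/R 2 correlated as well (0.120). Other pseudocounts, filters, scalings and the removal of each sample were also tried.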

Additional observations from a re-analysis of the deposited data

How the results depend on the processing

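The deposited values hold no counts, so the counting error of rare mRNAs such as Dsg2 and Dsc2 is unknown. Gja5, Dsc2 and Tjp1 stayed below 0 in all alternatives that tested them (17, 17 and 18). Rescaling over genes other than mitochondrial mRNAs gave 793 genes higher and 2857 lower, 0 members higher and 3 lower, and 4 members above 0 in place of 7, with negative log2 fold changes for Gjc1 (-0.44), Jup (-0.077) and Dsg2 (-0.12). Centring on cardiomyocyte markers gave 37 genes higher and 8560 lower, 0 members higher, 7 lower and 0 above 0, with Gja1 at -1.25, Gjc1 at -1.80, Dsp at -0.56, Pkp2 at -0.99, Jup at -1.41, Cdh2 at -0.75 and Dsg2 at -1.51. Quantile normalization gave 1441 genes higher and 1559 lower, 2 members higher (Dsp and Cdh2) and 1 lower (Tjp1), and Jup at -0.14. Centring on the median gave 1554 genes lower, with 3 members higher (Dsp, Pkp2 and Cdh2) and 1 lower (Tjp1). TPM gave 504 genes lower and a filter of 5 FPKM 166 genes lower. Against Gja1, a pseudocount of 1 left 1 member higher without overlap. Leaving out each sample gave 1528 to 2557 genes higher, 309 to 881 lower, 3 to 4 members higher, 0 to 1 lower, and 3 to 6 members lower against Gja1; the lowest count of higher genes came without sham 3, the lowest count of lower genes without sham 2, and the single lower member (Tjp1) without I/R 1. With the replicate block 5 members were higher and 0 lower: Jup was added (adjusted p = 0.0297), and no other member changed its call. The cause of these shifts was not tested beyond the construction of each scaling.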
